A study of Danio rerio with 30 samples.

Results

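Imiquimod was compared with its solvent DMSO in haematopoietic progenitors of wild-type zebrafish larvae that had met no haemolytic stress. The comparison took the 4 libraries labelled wild type, unstressed and imiquimod and the 3 labelled wild type, unstressed and DMSO, 7 of the 30 libraries of the series. The other libraries came from larvae that were carrying 1 mutant copy of the ribosomal protein gene rps14, or had been given phenylhydrazine (Phz), which destroys red cells, or both. The question the comparison answers is what imiquimod does to these cells without the mutation and without the stress.

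All 7 libraries came from larvae with the genotype Rps14+/+ and the transgene Tg(itga2b:GFP), in which GFP is made under the promoter of itga2b (CD41, a platelet integrin). Larvae were kept in 20 µM imiquimod or in DMSO for 4 days and received no Phz. They were genotyped from tail clips and pooled, and cells with low GFP were sorted into Trizol. RNA was sequenced as full-length cDNA by Smart-seq2, a protocol without molecular identifiers, so counting precision refers to reads and not to molecules. Each library is therefore a pool of animals, and the sort sees only cells in which the itga2b promoter is weakly active. The labels number the replicates without saying whether each number is a separate pool, and a p-value here covers only the spread among the sequenced samples, which may be technical. In bulk RNA, fewer cells of a type and less RNA per cell cannot be told apart.

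Imiquimod is a small imidazoquinoline that activates TLR7, an endosomal receptor for single-stranded RNA. TLR7 signals through the adaptor MYD88 to NF-kB and to interferon regulatory factors, and in blood cells this leads to cytokine and interferon genes. In mammalian cells imiquimod is also known to inhibit complex I, the NADH dehydrogenase of the mitochondrial respiratory chain, independently of TLR7. The chain passes electrons through complexes I, III and IV, with cytochrome c between the last pair, and ATP synthase uses the proton gradient that results. Part of its subunits are encoded in the mitochondrial genome and the others in the nucleus.

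The 7 libraries held 5703056 to 7438248 counts. The group of 4 had a mean of 18940 detected genes (SD 864, n = 4) and the DMSO group 17191 (SD 1422, n = 3), a difference with an exact two-sided permutation p of 0.0857 (adjusted p = 0.114 over 4 library measures), over the 35 ways to split 7 libraries. Levels are given as CPM, a gene's counts scaled to a common library total. The sort itself used only GFP from the itga2b promoter. Other markers chosen here for the sorted fraction were found in all 7 libraries at 8.29 CPM or more: MYB (434 to 797 CPM), LMO2, TAL1, gata2b, RUNX1 and mpl. The transgene's own gene itga2b was low and uneven, with 13.2, 1.9, 1.52 and 2.1 CPM with imiquimod and 24.4, 0.269 and 2.08 CPM in DMSO. Replicate 1 of both groups stood apart from the other 5 libraries in itga2b and in TAL1 (279 and 261 CPM, against 84.0 to 130 CPM). These belong to the libraries numbered 1 to 6 in the labels. The other imiquimod libraries are numbered 7 to 9 and the other DMSO libraries 13 and 14, so beyond replicate 1 library number and treatment cannot be told apart.

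Genes of the respiratory chain and of ATP synthase were mostly lower with imiquimod, without any single gene passing the test over the whole genome. The ribosomal protein and Sm families described below were also mostly lower. By edgeR's quasi-likelihood test with Benjamini-Hochberg adjustment, 0 of 19930 genes were called in either direction (0% higher, 0% lower). At an unadjusted p under 0.05, 857 genes (4.3% of those tested) were higher with imiquimod and 550 (2.76%) lower. DESeq2 called 77 genes, 36 higher and 41 lower, and limma's voom called 0. The groups did not overlap for 1091 genes (5.47%) with all 4 imiquimod libraries above all 3 DMSO libraries, and for 542 (2.72%) with all 4 below. The median log2 fold change over all genes was 0.08, with 54.5% of values positive and 45.4% negative. A set of 106 genes tested held subunits of complexes I to IV, cytochrome c, ATP synthase with its inhibitors, and 4 assembly factors of complex I. Of these 106, 100 had negative fold changes, with a median of -0.64. In 54 of the 106 the unadjusted p was under 0.05 and the value negative, in 0 it was positive, and in 50 all imiquimod libraries lay below all DMSO libraries. Of the 41 genes that DESeq2 called lower among the 19930, 15 belong to this group, and 0 of the 36 called higher do. With 36 called higher among 19930 genes, 0 in 106 is near the share of all genes. The families of complexes II to IV and ATP synthase were put together after the values had been seen. So were the splicing, import, ribosomal subunit, mitochondrial ribosomal, proteasome, nucleoporin and chromatin families below.

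**Figure D1:**
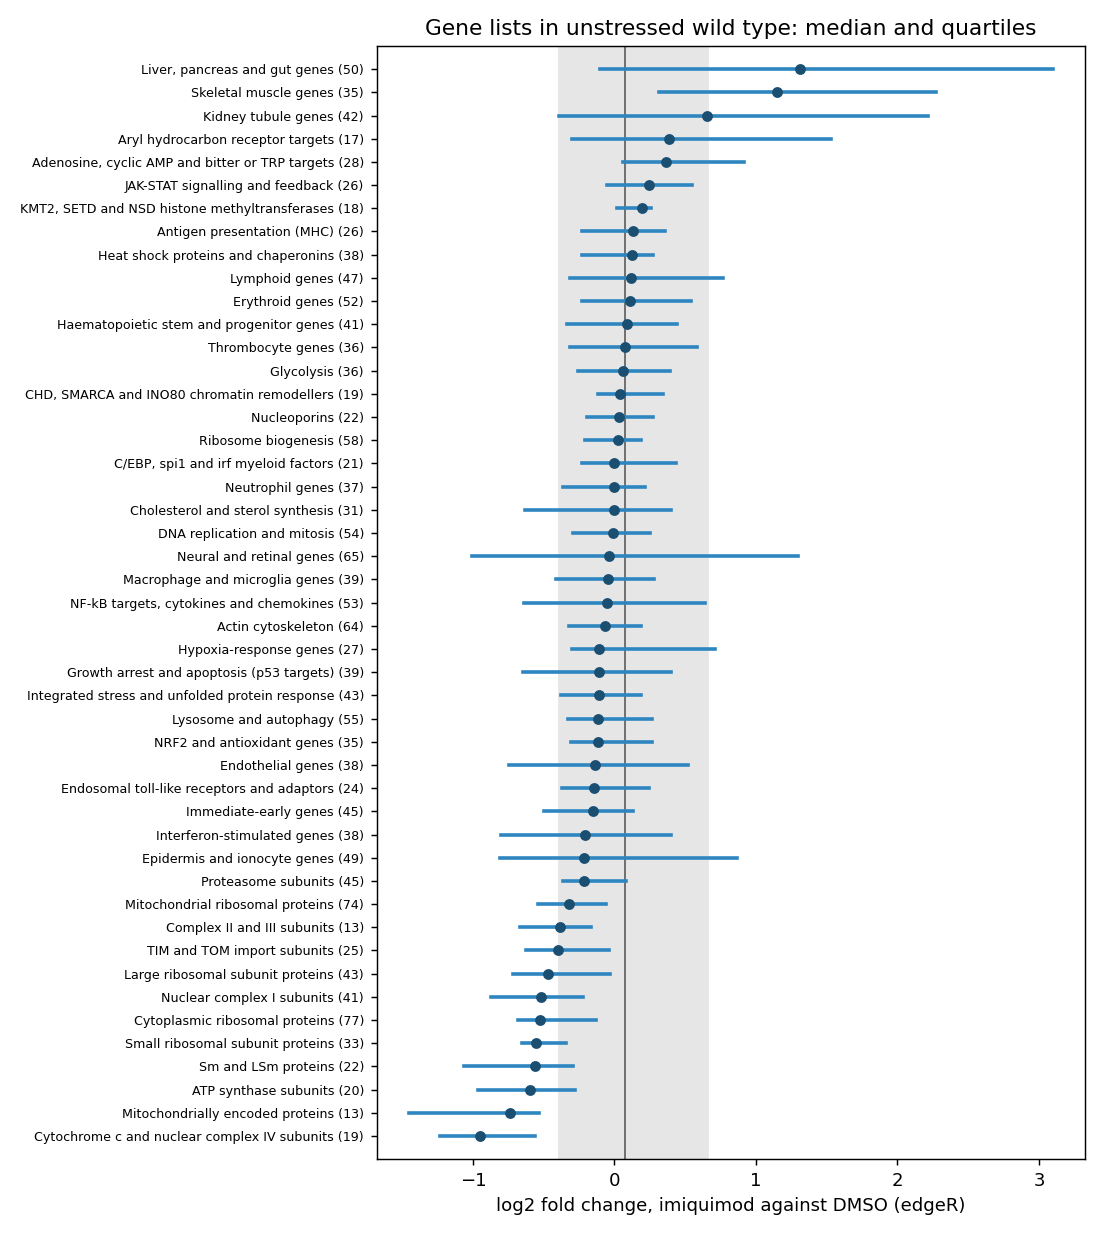
Median (dots) and lower to upper quartile (lines) of the log2 fold change, imiquimod against DMSO in unstressed wild type, for the members tested of each gene list (number in brackets); the grey band and line give the quartiles and median of all 19930 genes. Respiratory chain, ribosomal protein and Sm lists lie at the low end, and lists of liver, muscle and kidney genes, most of them at low counts, at the high end.

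All 13 protein genes of the mitochondrial genome had negative fold changes (median -0.74). MT-CO2, a core subunit of complex IV, was at 3417, 2829, 2943 and 3201 CPM with imiquimod and at 4809, 4132 and 5864 CPM in DMSO. The groups did not overlap, and the log2 fold change was -0.74 ± 0.16 (SE, edgeR adjusted p = 0.17). MT-CO1, the catalytic subunit of the same complex, was at 1734, 1720, 1870 and 1523 CPM against 2811, 2294 and 2435 CPM, again without overlap (-0.61 ± 0.21, adjusted p = 0.58). MT-CO3 was at 3228, 3179, 3190 and 3828 CPM against 4149, 4083 and 5162 CPM (-0.48 ± 0.17, adjusted p = 0.60). Replicate 4 of the imiquimod group was closest to DMSO for this gene, and the groups did not overlap.

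Complex I subunits of the mitochondrial genome went the same way. MT-ND6 was at 15.2, 12.3, 9.3 and 17 CPM with imiquimod and at 42.1, 33.6 and 31 CPM in DMSO (-1.45 ± 0.33, edgeR adjusted p = 0.17). MT-ND3 was at 2.91, 4.66, 5.8 and 2.63 CPM against 11.7, 17.3 and 15.8 CPM (-1.96 ± 0.55, adjusted p = 0.36), so that all 4 imiquimod libraries were under the lowest DMSO library for both genes. MT-ND2 (-0.80 ± 0.25) and mt-nd4l (-1.35 ± 0.48) did not overlap between groups either. MT-ND4, MT-ND5 and MT-CYB, the cytochrome b of complex III, overlapped, and replicate 1 of the imiquimod group held the highest level of the 4 for each (651, 538 and 3801 CPM). MT-ATP6, a proton channel subunit of ATP synthase, was at 170, 66.7, 79.9 and 67.2 CPM against 272, 142 and 476 CPM (-1.72 ± 0.49, adjusted p = 0.42). The coding regions of MT-ATP6 and mt-atp8, and those of mt-nd4l and MT-ND4, overlap, and MT-ND6 lies on the strand opposite to the others; the use of strand in counting was not given in the sources used here, so reads in the overlaps cannot be told apart.

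**Figure D2:**
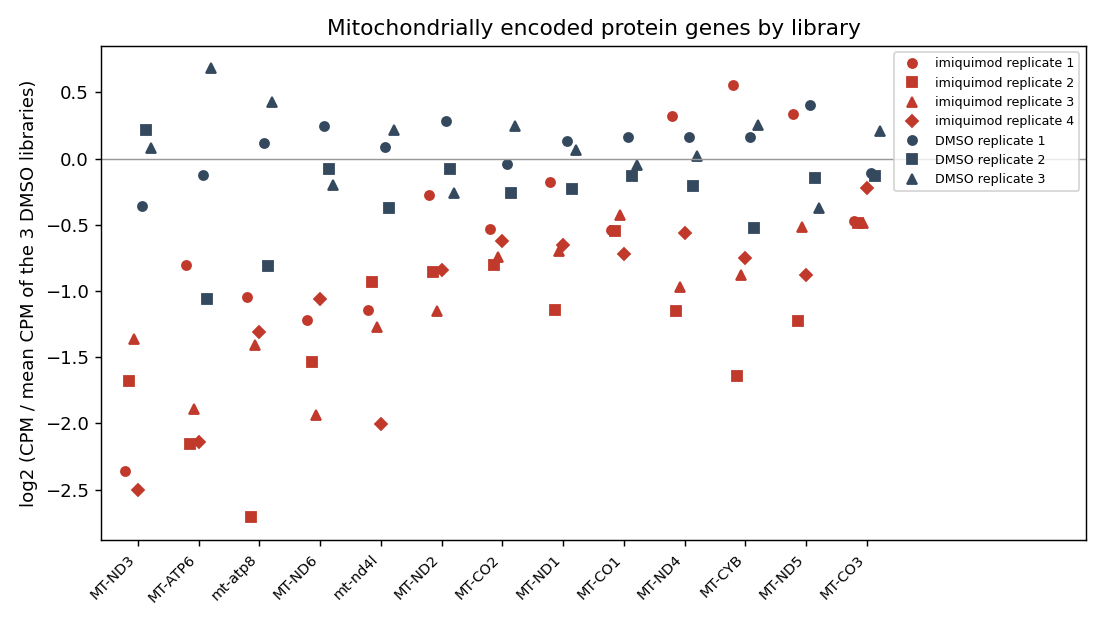
Level of each of the 13 mitochondrially encoded protein genes in each of the 7 libraries, as log2 of CPM over the mean CPM of the 3 DMSO libraries (red imiquimod, dark DMSO; marker shape gives the replicate). In 8 of the 13 genes (61.5%, against 2.72% of all genes) every imiquimod library lies below every DMSO library. Replicate 1 of the imiquimod group is closest to DMSO in MT-ND4, MT-ND5 and MT-CYB.

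Together these 13 genes took 1.14% of counts with imiquimod (SD 0.207, n = 4) and 1.67% in DMSO (SD 0.238, n = 3), a difference with an exact two-sided permutation p of 0.0857 (adjusted p = 0.114 over 4 measures). The highest imiquimod library (1.43%, replicate 1) exceeded the lowest DMSO library (1.41%, replicate 2), and the other 3 imiquimod libraries lay below all DMSO libraries. The 4-library group had the lowest mean share of all 8 groups of the series, the others lying between 1.62% and 2.15%, and it was the lowest of the 8 in mean CPM for each of the 13 genes. Without the libraries numbered 1 to 6, which removes replicate 1 of both groups, all 13 genes were again negative and the median was -0.93.

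Nuclear genes of complex I were also lower, and here the accessory subunits were lower than the core. Of 41 tested, 38 were negative (median -0.52). At an unadjusted edgeR p under 0.05, 19 (46.3%) were lower, against 2.76% of all genes. Without overlap 15 (36.6%) were lower, against 2.72% of all genes. NDUFA4, now assigned to complex IV, was counted here with the accessory subunits (-0.69). The 30 genes so counted as accessory subunits, which surround the catalytic core, had 29 negative values and a median of -0.70. Their summed level was 939, 929, 1130 and 1146 CPM with imiquimod and 1405, 1495 and 1406 CPM in DMSO, with all imiquimod libraries below the lowest DMSO library. The 7 nuclear core subunits, which carry the flavin and iron-sulphur centres, had a median of -0.16, and their summed level was 638, 606, 691 and 652 CPM against 663, 771 and 646 CPM, which overlapped. The difference between core and accessory subunits was not tested.

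Among the accessory subunits NDUFA6 was at 20.4, 19.2, 24.2 and 34.4 CPM with imiquimod and 54.7, 38.3 and 53.3 CPM in DMSO (-1.05 ± 0.27, edgeR adjusted p = 0.32). NDUFB8 was at 82.4, 72.9, 109 and 99.8 CPM against 136, 149 and 141 CPM (-0.70 ± 0.19, adjusted p = 0.34). The groups did not overlap for either gene. Of the core, NDUFV1, the NADH-binding subunit, was at 190, 157, 147 and 133 CPM against 166, 165 and 172 CPM, with overlap (-0.16 ± 0.22). NDUFS1 was the only complex I gene with all imiquimod libraries above all DMSO libraries, at levels of 0.447 to 3.28 CPM (0.84 ± 0.89). It makes up 2.44% of the nuclear complex I list, against 5.47% of all genes higher without overlap.

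**Figure D3:**
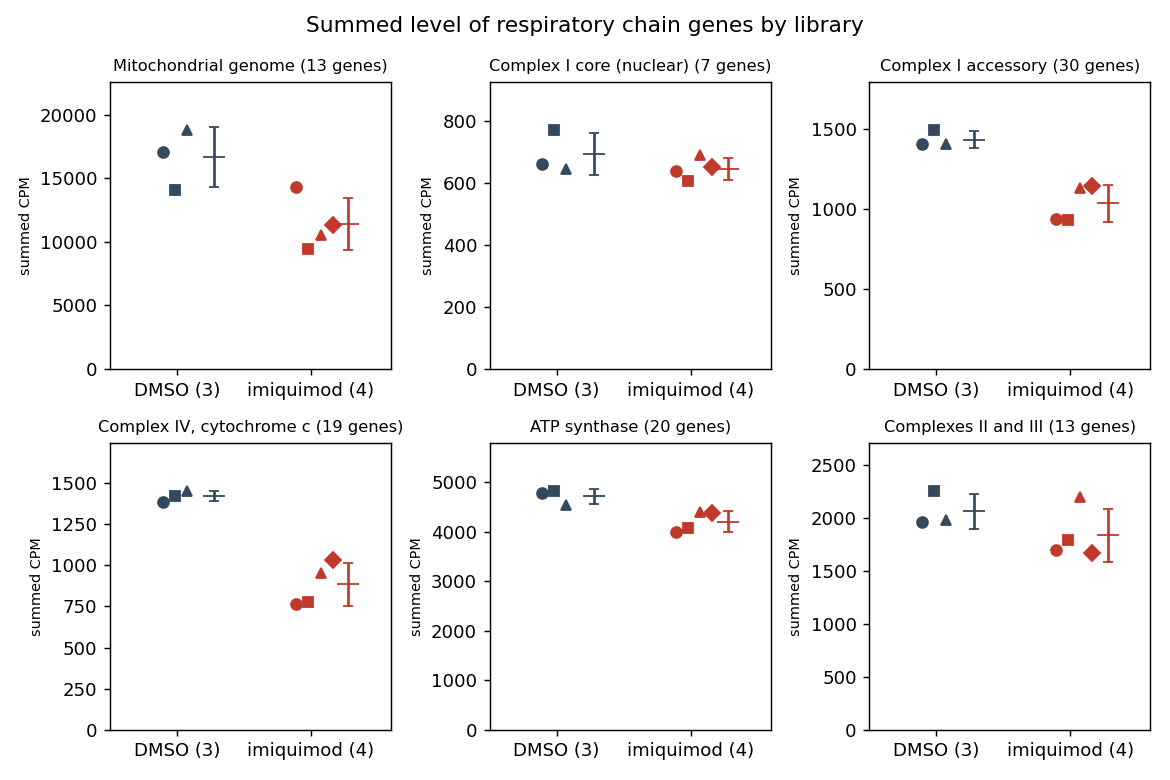
Summed CPM of the genes of each complex in each library (dark DMSO, red imiquimod; marker shape gives the replicate, bars give mean and SD over libraries). The groups are apart for complex I accessory subunits, for complex IV with cytochrome c and for ATP synthase, and overlap for the complex I core, for complexes II and III and, by 1 pair of libraries, for the mitochondrial genome.

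Complex IV and cytochrome c showed the lowest median among the lists examined, -0.95 over 19 nuclear genes of which 18 were negative. Of the 19, 11 were lower without overlap, as were 2.72% of all genes. The summed level of the 19 was 767, 780, 956 and 1034 CPM with imiquimod against 1388, 1424 and 1454 CPM in DMSO. The peripheral subunit gene cox6b2 was at 126, 105, 129 and 178 CPM against 290, 241 and 264 CPM (-1.03 ± 0.21, edgeR adjusted p = 0.15). The cytochrome c gene cycsb was at 45.4, 57.9, 45.8 and 53 CPM against 103, 150 and 100 CPM (-1.27 ± 0.28, adjusted p = 0.17). Neither gene overlapped between groups, and the same held for cox17, a copper chaperone for complex IV assembly outside the list of 19, at 24.7, 23.5, 23.6 and 32.8 CPM against 56.7, 58.2 and 61.5 CPM (-1.23 ± 0.26, adjusted p = 0.15). COX7A2, which shares its symbol with another gene, was at -1.2 ± 0.27, and COX4I1, a large nuclear subunit, at -0.35 ± 0.22 with overlapping groups.

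ATP synthase genes also differed among themselves, by values that were not tested against each other. Of 20 genes 19 were negative (median -0.60). ATP5F1A and ATP5F1B, the alpha and beta subunits of the catalytic head, were at 0.10 ± 0.18 and -0.12 ± 0.14. ATP5F1A was the 1 gene of the 20 with all imiquimod libraries (943 to 1002 CPM) above all DMSO libraries (849 to 884 CPM). Of all genes 5.47% were higher without overlap, so 1 of 20 is near that share. The small subunits lay lower. ATP5MG was at 21.2, 29, 30.3 and 39.6 CPM against 59.8, 60.4 and 53.7 CPM (-1.0 ± 0.26, edgeR adjusted p = 0.32), and atp5f1e, the epsilon subunit, at 19.5, 26.4, 17.7 and 27 CPM against 58.1, 44.5 and 58.5 CPM (-1.31 ± 0.40, adjusted p = 0.44). The inhibitor gene atp5if1b was at 57.9, 66.5, 93.0 and 86.1 CPM against 124, 133 and 132 CPM (-0.83 ± 0.20, adjusted p = 0.24). None of these 3 overlapped between groups. Complexes II and III had 12 of 13 negative values (median -0.38), from UQCRQ, a small complex III subunit (-1.46 ± 0.38), and SDHC, a membrane anchor of complex II (-1.04 ± 0.29), to the flavoprotein SDHA (0.25 ± 0.23).

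Cytoplasmic ribosomal protein genes had negative values in 65 of 77 (median -0.53), while their summed level differed by less than its SD in either group, at a mean of 86460 CPM with imiquimod (SD 16950, n = 4) and 93140 CPM in DMSO (SD 15990, n = 3). Of the 77 genes, 39 (50.6%) were lower at an unadjusted edgeR p under 0.05 and 0 higher, against 2.76% and 4.3% of all genes. The groups overlapped more than in the respiratory chain, with 12 of the 77 (15.6%) lower without overlap, against 2.72% of all genes. RPS21 was at 64.0, 54.9, 43.0 and 93.3 CPM with imiquimod and 200, 116 and 216 CPM in DMSO (-1.54 ± 0.39, edgeR adjusted p = 0.31). RPL38 was at 55.5, 47.2, 30.5 and 73.3 CPM against 161, 107 and 159 CPM (-1.53 ± 0.49, adjusted p = 0.54), and neither gene overlapped. By contrast RPL3 was at 9526, 7278, 6710 and 8996 CPM against 7751, 5897 and 5172 CPM (0.32 ± 0.21), RPL8 at 0.21 ± 0.20 and RPS6 at -0.03 ± 0.22. RPS14, the gene mutated elsewhere in the series, was at 571, 389, 347 and 672 CPM against 655, 470 and 611 CPM, with overlap (-0.28 ± 0.28).

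These values followed the number in the protein's name, which within each subunit broadly rises as the proteins become smaller. Large subunit genes numbered under 20 had a median of -0.08 over 21 genes and those numbered 20 or over a median of -0.66 over 18, all 18 negative. Small subunit genes were at -0.42 over 20 genes and -0.72 over 12. The cut at 20 was chosen after the values were seen, and the relation is a description with no test. Nucleoporins, whose number approximates their mass in kilodaltons, showed 0 of 22 genes lower and 3 higher at an unadjusted p under 0.05 in edgeR. Without overlap 4 were higher and 0 lower. Of all genes, 2.76% were lower and 4.3% higher at that p, and 2.72% lower and 5.47% higher without overlap. For 22 genes, 0 lower is near these shares. Their median was 0.14 for 9 genes numbered 100 or over and -0.14 for 13 numbered below, a cut also chosen after the values were seen and not tested. Among the latter, nup54 (0.59 ± 0.24) and NUP58 (0.31 ± 0.27) were higher without overlap. Transcript length was not in the tables used here, and its part in these differences was not tested.

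**Figure D4:**
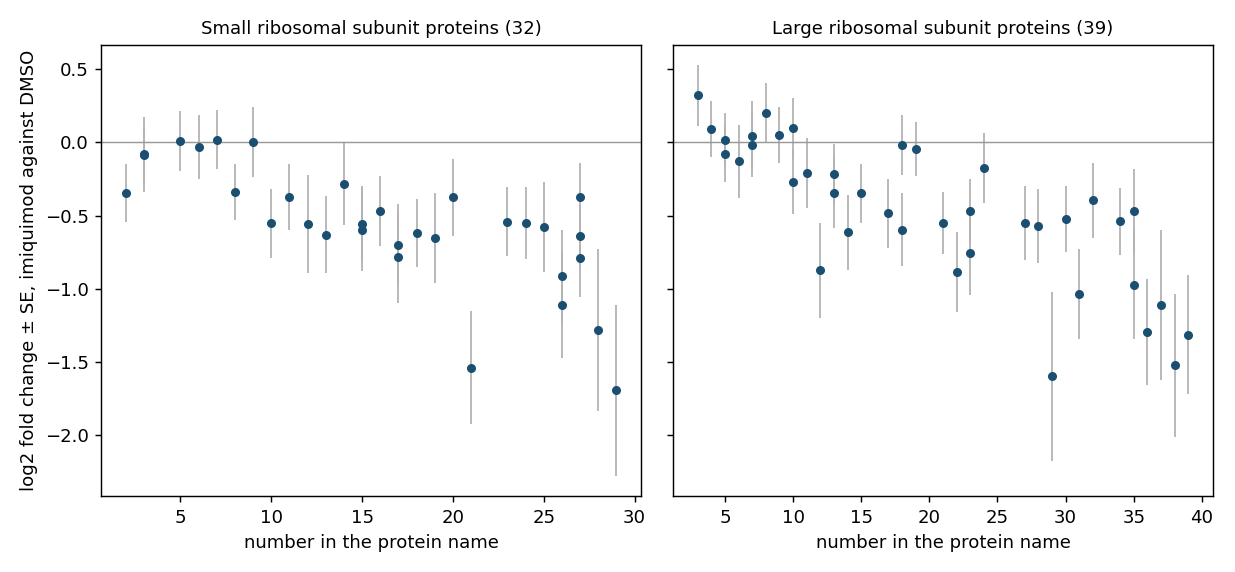
Log2 fold change with its SE for each small and large ribosomal subunit gene with a number in its name (32 and 39 genes), against that number. Genes with low numbers lie near 0 and genes with high numbers below 0, down to -1.70 for RPS29 and -1.60 for RPL29.

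The Sm and LSm list, many of whose members encode small ring-forming components of the splicing and RNA decay machinery, had 21 of 22 negative values (median -0.56). It was taken by gene symbol and also counted SNRPC, LSM12 and LSM14A. SNRPF was at 29.1, 28, 31.3 and 31.7 CPM with imiquimod and 69.4, 82.3 and 68.8 CPM in DMSO (-1.35 ± 0.26, edgeR adjusted p = 0.15), and SNRPE at 25.5, 23.1, 26.7 and 28.4 CPM against 53.9, 51.2 and 52.4 CPM (-1.07 ± 0.24, adjusted p = 0.17). In both the spread within a group was far smaller than the gap between groups. Mitochondrial ribosomal proteins had 60 of 74 negative (median -0.32), the TIM and TOM import subunits 19 of 25 (median -0.40) and the proteasome 32 of 45 (median -0.21). Ribosome biogenesis genes, which include many large nucleolar proteins, had 27 of 58 negative and a median of 0.02. Chromatin families of large proteins were at 0.19 (KMT2, SETD and NSD histone methyltransferases, 13 of 18 positive) and 0.04 (CHD, SMARCA and INO80 remodellers, 11 of 19 positive). Over all genes the median was 0.08 and 54.5% were positive, so the remodellers lay near that background.

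Other genes of smallest p on the lower side were NOP10, a small protein of H/ACA ribonucleoproteins, at 36.0, 30.2, 29.7 and 44.2 CPM against 77.3, 66.1 and 95.6 CPM (-1.25 ± 0.27, edgeR adjusted p = 0.17), and ptpn11b, a copy of the phosphatase gene SHP2, at 56.7, 33.3, 35.7 and 52.6 CPM against 82.6, 88.9 and 102 CPM (-1.09 ± 0.26, adjusted p = 0.24). The actin monomer-binding thymosin gene tmsb4x was at 733, 1037, 972 and 954 CPM against 1402, 1807 and 3053 CPM (-1.25 ± 0.28, adjusted p = 0.17). All 3 were apart between groups. In the actin cytoskeleton list tmsb1 (-0.86 ± 0.25) and the filament-severing cofilin gene CFL1 (-0.74 ± 0.21) were also lower without overlap, while the heavy chain gene MYH9, which shares its symbol, was higher (0.66 ± 0.22), and the median over 64 genes was -0.07.

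On the higher side the smallest p belonged to SPOPL, an adaptor of cullin-3 ubiquitin ligases that shares its symbol with another gene. It was at 49.5, 69.3, 65.1 and 95.7 CPM with imiquimod and 18.4, 29 and 17.6 CPM in DMSO (1.64 ± 0.29, edgeR adjusted p = 0.065), and it was called when replicate 1 of the imiquimod group (adjusted p = 0.031) or replicate 2 of the DMSO group (adjusted p = 0.042) was left out. DDIT4, an inhibitor of mTORC1 that responds to hypoxia and other stress, was at 24.7, 20.9, 19.7 and 22.6 CPM against 5.53, 3.9 and 2.98 CPM (2.36 ± 0.59, adjusted p = 0.31). The growth hormone receptor gene ghrb was at 30, 19.7, 29.9 and 20.9 CPM against 4.61, 6.59 and 0.744 CPM (2.62 ± 0.60, adjusted p = 0.17). None of these genes overlapped between groups. The same held for nrxn1a, a neurexin (4.78 ± 1.19), and ACSF3, a mitochondrial acyl-CoA synthetase (3.81 ± 1.03). Both were listed at 0 counts in 2 DMSO libraries. Also apart were MAP3K1, a kinase upstream of JNK (1.18 ± 0.30), and CEP55, which acts in the last step of cell division (1.81 ± 0.47). So were mia3, a receptor for collagen export from the endoplasmic reticulum (1.24 ± 0.33), and TIAM1, an activator of Rac that shares its symbol (1.39 ± 0.37). NUP205, a nuclear pore scaffold protein, did not overlap either (0.98 ± 0.26). The groups overlapped for prkar1ab, a regulatory subunit of protein kinase A (0.97 ± 0.24), and SBNO1 (0.93 ± 0.24).

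**Figure D5:**
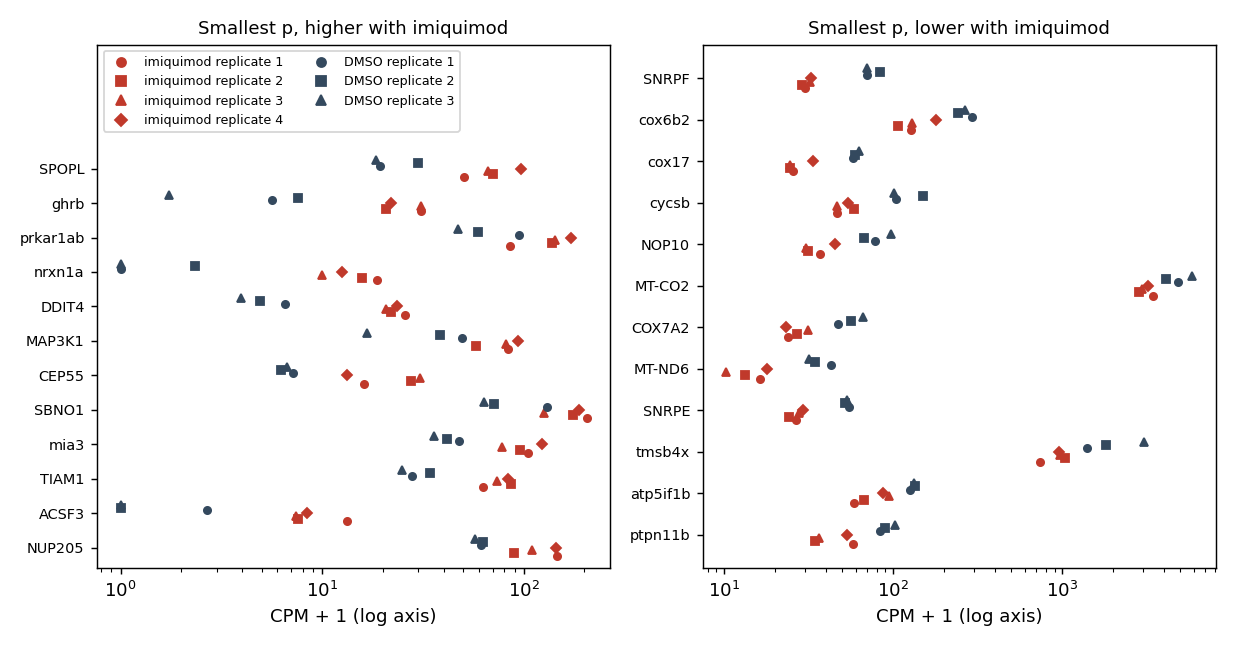
CPM plus 1 (log axis) in each of the 7 libraries for the 12 genes of smallest p on each side (red imiquimod, dark DMSO; marker shape gives the replicate). The groups are apart for all 12 lower genes and for 10 of the 12 higher genes; SPOPL was the closest to the threshold, with an adjusted p of 0.065.

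The 2 sides differed in which group stood apart from the rest of the series. For the 12 higher genes the DMSO group had the lowest mean CPM of all 8 groups in 12 of 12, and the imiquimod group the highest in 7. For the 12 lower genes the imiquimod group was the lowest of the 8 in 12 of 12, and the DMSO group the highest in 6. These genes were chosen by this same contrast, so the positions describe them and test nothing. SPOPL averaged 21.7 CPM in DMSO (SD 6.39, n = 3), against 69.9 (SD 19.2, n = 4) with imiquimod and means of 41.0 to 68.3 CPM in the other 6 groups. Of the 93 nuclear respiratory chain and ATP synthase genes, imiquimod was the lowest group in 74 and DMSO the highest in 18. Of the 77 ribosomal protein genes the order was the other way, with imiquimod the lowest in 6 and DMSO the highest in 49. Over all 19930 genes imiquimod was the lowest group in 2112 and DMSO the highest in 2647. In the other direction DMSO was the lowest group in 3817 of all genes and imiquimod the highest in 3173.

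The receptor side of the pathway gave little to read at this depth. TLR7 was at 0, 1.38, 0.61 and 1.58 CPM with imiquimod and 3.53, 0 and 0 CPM in DMSO, and replicate 1 of the DMSO group held all of that group's counts. The related receptor gene tlr8b was at 11, 10, 18.1 and 16.7 CPM against 5.22, 8.47 and 8.34 CPM, higher in all 4 libraries but with a wide error (0.86 ± 0.75, edgeR adjusted p = 0.95). MYD88 (-0.22 ± 0.30), the chaperone UNC93B1, which brings endosomal receptors to their compartment (0.36 ± 0.44), and the transcription factor IRF7 (-0.20 ± 0.81) overlapped between groups. IRF7 was at 20.9, 40.1, 76.1 and 35.9 CPM against 19.4, 51.2 and 70.9 CPM, so that each group spanned a more than 3-fold range, and its sign turned in 3 of 15 alternative settings. CNPY3, a chaperone for toll-like receptors, was the 1 gene of the 24 in this list at an unadjusted p under 0.05, lower without overlap (31.2, 34.4, 27.4 and 30.5 CPM against 46.2, 66.3 and 52.1 CPM; -0.88 ± 0.28, adjusted p = 0.52). That gene is 4.17% of the list, against 2.76% of all genes lower at that p. The list's median was -0.15, and it turned to 0.07 without replicate 3 of the DMSO group.

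Targets downstream showed no common shift. Interferon-stimulated genes had 22 of 38 negative values and a median of -0.21, which became 0.21 without the libraries numbered 1 to 6. NF-kB targets, cytokines and chemokines had 30 of 53 negative and a median of -0.05, ranging from -0.51 without replicate 3 of the imiquimod group to 0.39 without replicate 3 of the DMSO group. Within that list IKBKE, a kinase of the interferon pathway, was at 34.2, 32.8, 41.2 and 56.8 CPM against 17.2, 20.4 and 4.76 CPM (1.52 ± 0.48, edgeR adjusted p = 0.50), and the chemokine receptor gene CXCR4, which shares its symbol, at 1019, 900, 983 and 944 CPM against 661, 643 and 716 CPM (0.45 ± 0.20, adjusted p = 0.65). Both were apart between groups, as was a copy of PTGS2, the inducible cyclooxygenase, in the other direction (-1.48 ± 0.74). Without overlap, 5.66% of the 53 genes were higher and 3.77% lower, against 5.47% and 2.72% of all genes. The genes named therefore do not stand for their list. JAK-STAT genes had 18 of 26 positive values (median 0.25), with the lymphoid kinase gene jak3 at 51.2, 30.4, 28.1 and 52.3 CPM against 33.5, 7.13 and 12.8 CPM (1.13 ± 0.39) and JAK2 at 0.59 ± 0.32. Aryl hydrocarbon receptor genes had 12 of 17 positive (median 0.38), led by the receptor's partner arnt (1.53 ± 0.59, apart). The classical target CYP1B1 stayed at 4.28 CPM or less in all 7 libraries. Of the 17 genes, 5.88% were higher without overlap, near the 5.47% of all genes. The median ranged from 0.12, without the libraries numbered 1 to 6, to 0.88 over the 15 alternative settings. The list's summed level overlapped, at 582 to 807 CPM with imiquimod and 451 to 1165 CPM in DMSO.

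Lists of hypoxia, heat shock, antioxidant and glycolysis genes had medians between -0.12 and 0.12, against 0.08 for all genes. In the hypoxia list (median -0.11, 13 of 27 positive), ANKRD37, a hypoxia target, was at 3.77, 4.84, 5.18 and 1.4 CPM against 0, 0.134 and 0 CPM, where DMSO rests on 1 count. DDIT4 and a copy of BNIP3L, which marks mitochondria for removal (0.66 ± 0.37), were also higher without overlap. The median turned to 0.34 without replicate 2 of the DMSO group. Heat shock genes had a median of 0.12. Without overlap, 13.2% of the 38 were higher and 5.26% lower, against 5.47% and 2.72% of all genes. Among them the co-chaperone dnajb1a was at 11.8, 5.87, 15.6 and 16.7 CPM against 0.922, 3.36 and 3.87 CPM (2.12 ± 0.73, edgeR adjusted p = 0.57). The small mitochondrial chaperonin HSPE1 was lower (-0.72 ± 0.29), and neither gene overlapped between groups. Of the antioxidant genes TXN (-0.48 ± 0.16) and GPX4 (-0.36 ± 0.18) were lower without overlap, and the list's median was -0.12. At an unadjusted edgeR p under 0.05, 11.4% of its 35 genes were lower and 2.86% higher, against 2.76% and 4.3% of all genes. Glycolysis was at a median of 0.06 over 36 genes. Imiquimod is also known to act on adenosine and cyclic AMP signalling in mammals. A list of such genes, mixed with bitter taste or TRP channel targets, had a median of 0.36 (21 of 28 positive). That median stayed positive in all 15 alternative settings (0.12 to 0.57). Of the 28 genes 1 (3.57%) was higher at an unadjusted edgeR p under 0.05, against 4.3% of all genes. Their summed level overlapped, at 1203 to 2846 CPM with imiquimod and 938 to 2106 CPM in DMSO.

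Lists of blood cell types were close to the median of all genes: 0.09 for stem and progenitor genes, 0.11 for erythroid, 0.07 for thrombocyte, -0.00 for neutrophil, -0.05 for macrophage and 0.12 for lymphoid genes. Each of these medians changed sign when some single library was left out. Single members stood out on both sides. Without overlap, 9.76% of the 41 stem and progenitor genes were higher and 4.88% lower. The shares were 6.38% and 4.26% for 47 lymphoid genes and 8.33% and 2.78% for 36 thrombocyte genes. For all genes they were 5.47% and 2.72%, so the genes named next do not stand for their lists. The progenitor gene cd34 was at 116, 71.0, 80.2 and 106 CPM with imiquimod and 147, 142 and 164 CPM in DMSO (-0.75 ± 0.29, edgeR adjusted p = 0.62). RAG1, the recombinase of developing lymphocytes, was at 128, 57.5, 59.0 and 130 CPM against 18.9, 19.5 and 45.3 CPM (1.67 ± 0.78, adjusted p = 0.70), and TBXAS1, the thromboxane synthase of platelets, at 24.7 to 49.6 CPM against 14.7 to 18.7 CPM (1.16 ± 0.39). All 3 were apart between groups.

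Lists of tissues outside the sorted fraction had medians of both signs, and the sign of the negative ones depended on single libraries. The highest medians, at low levels, were 1.31 for 50 liver, pancreas and gut genes, 1.15 for 35 skeletal muscle genes and 0.66 for 42 kidney tubule genes, the last at -0.19 when only the 7 libraries were fitted. Epidermis and ionocyte genes were at -0.21 (28 of 49 negative), endothelial genes at -0.14 (24 of 38 negative) and neural and retinal genes at -0.04 (33 of 65 negative). Each of these negative medians turned positive when a single DMSO library was left out. The epidermis and ionocyte median became 0.67 without replicate 2 of the DMSO group, and the endothelial median 0.11 without its replicate 1. The neural and retinal median also turned positive without that replicate 1, and was 1.54 without the libraries numbered 1 to 6. The summed level of the muscle genes was 237 to 448 CPM with imiquimod and 227 to 254 CPM in DMSO, and that of the liver list 627 to 1313 CPM against 967 to 1611 CPM, so the liver list's sum was not higher although its median fold change was. Many members, such as FGB and ambp, were at 0 counts in all 3 DMSO libraries. The larger number of genes detected with imiquimod, given above, moves with these medians, and its part in them was not tested.

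Whether the imiquimod effect differed from that in the other backgrounds was tested as an interaction. Against unstressed heterozygous larvae 0 genes (0%) passed in edgeR, where 1046 had an unadjusted p under 0.05; 7 passed in DESeq2 and 0 in voom. The smallest p belonged to MT-CO2, whose effect was -0.74 in wild type and 0.39 ± 0.16 in heterozygotes, a difference of -1.13 ± 0.23 (edgeR adjusted p = 0.52). MT-CO3 differed by -1.01 ± 0.24 (adjusted p = 0.92), from 3571 CPM in heterozygous DMSO (SD 597, n = 4) to 5170 CPM with imiquimod (SD 372, n = 3). Over the 13 mitochondrial genes, 1 was negative with imiquimod in unstressed heterozygotes (median 0.25), 11 in wild type after Phz (median -0.35) and 8 in heterozygotes after Phz (median -0.09). Nuclear complex I genes were at medians of -0.31, 0.08 and 0.06 and ribosomal protein genes at -0.38, 0.04 and -0.07 in the same order, so both lists were on the lower side in unstressed larvae of either genotype and near 0 after Phz.

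Against wild-type larvae that had received Phz, 0 genes (0%) again passed in edgeR, where 1614 had an unadjusted p under 0.05; 54 passed in DESeq2 and 0 in voom. DDIT4 came closest. Its mean was 4.14 CPM (SD 1.29, n = 3) in DMSO and 22 CPM (SD 2.16, n = 4) with imiquimod in unstressed larvae. After Phz it was at 18.2 CPM (SD 6.69, n = 3) in DMSO and 4.36 CPM (SD 1.27, n = 4) with imiquimod, a difference in log2 effect of 4.42 ± 0.81 (edgeR adjusted p = 0.10). The libraries of the 2 treatments did not overlap in either condition, and the order was inverted. The same adjusted p was shared by 3 other genes: SPOPL (2.0 ± 0.40), an uncharacterised gene named si:dkeyp-116a7.2 and the low-level receptor gene GPR25, which had 0 counts in all 3 unstressed DMSO libraries. The last of the 3 genes named by the rule on level and symbol was jak3 (2.55 ± 0.55, edgeR adjusted p = 0.20). The level of jak3 after Phz was 33.3 CPM in DMSO (SD 4.87, n = 3) and 12.4 CPM with imiquimod (SD 2.05, n = 4).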

How the data were processed

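Raw counts, whole numbers for each gene of sorted GFP-low cells, were taken as deposited. Per the submitters' processing notes, reads went through HISAT2 2.1.0 and SAMtools 1.9 against GRCz11, with FastQC 0.11.9 and Trimmomatic 0.39 for quality and trimming, Subread 2.0.0 (featureCounts) for counting, and DESeq2 afterwards. Which annotation release, strand setting and gene filter applied is not given in the sources used here. Symbols came from a reference table that matched 19528 of 20631 gene identifiers.

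R 4.3.3 and edgeR 4.0.16 served for the fit: TMM scaling, filterByExpr, and the robust quasi-likelihood test with all 30 libraries in a single design of 8 group means. The threshold was 0.05 after Benjamini-Hochberg adjustment across 19930 genes, of which 2684 share a symbol with another. SEs derive from the F statistic. The test was checked on simulated counts, but only with changes larger than most described here and only in genes at higher levels. Smaller changes and low genes were not covered by it. DESeq2 1.42.0, limma 3.58.1 (voom), another scaling, no low-count filter, only the 7 libraries, library number terms, a replicate block and leaving out each library were the alternatives. Pairs of replicates within a group differed by more than sampling noise (chi-square per degree of freedom 19.1 to 58.0).

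Genes named were fixed pathway genes, the 12 of smallest p in each direction whose log2 CPM averaged 1 or more and whose symbol was informative, up to 4 of smallest p per list and 3 per interaction. Other named genes were chosen after their values were seen. The members and the 35 lists were chosen with earlier results of these data known, and 12 families were added after seeing the values. Lists got no set test, and tlr8a and tlr9 were not analysed here. The values of 1 gene are not reported here.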

Additional observations from a re-analysis of the deposited data

Results flagged for a closer look

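In 6 of 47 checks of the 4 imiquimod libraries, each on 1 gene or library measure, 1 library lay far from the other 3. Chance flags about 1 in 20 such groups, and the DMSO group of 3 was not checked. In replicate 1, itga2b was at 13.18 CPM against 1.53 to 2.104 CPM in the others, ACSF3 at 12.33 CPM against 6.41 to 7.36 CPM, and MT-ATP6 at 169.7 CPM against 66.7 to 79.9 CPM. In replicate 4, cox17 was at 32.79 CPM against 23.5 to 24.7 CPM and MT-CO3 at 3828 CPM against 3179 to 3228 CPM, both towards the DMSO libraries. Replicate 3 had a total of 6557319 counts against 5703056 to 5840749.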

How the results depend on the processing

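The count of 0 genes called for imiquimod against DMSO became 77 with DESeq2 and 0 to 10 when 1 library was left out, with 1 (SPOPL) without replicate 1 of the imiquimod group and 10, SPOPL and MT-CO2 among them, without replicate 2 of the DMSO group. Of the 77, 71 had an unadjusted edgeR p under 0.05, and 9 had a log2 fold change beyond 10 in size. The interaction with genotype gave 7 genes with DESeq2. The interaction with Phz gave 54 with DESeq2, 1 with the replicate block, 2 with a term for the libraries numbered 1 to 6, and 0 to 1 with 1 library left out (1 without replicate 1 of the DMSO group). With the replicate block the main comparison and the genotype interaction stayed at 0; same-numbered libraries of the 2 groups correlated at 0.086, 0.039 and 0.112, so the numbers were not taken as pairs. Signs turned for itga2b (0.27 with voom, 0.46 without the libraries numbered 1 to 6, -2.30 to 1.80 with 1 library left out, the highest without replicate 1 of DMSO), IRF7 (0.049 with the replicate block, 0.03 without replicate 1 of imiquimod, 0.24 without replicate 3 of DMSO, and -0.65 to 0.24 over all libraries left out), TLR7 (1.17 with voom, 6.11 without the libraries numbered 1 to 6, -1.01 to 5.70 with 1 library left out, the highest without replicate 1 of DMSO) and the share of the 50 most abundant genes (-0.782 to 0.406 percentage points with 1 library left out, the highest without replicate 3 of imiquimod). The cause was not tested. Medians kept their sign in all 15 settings for mitochondrially encoded genes (-0.99 to -0.65), nuclear complex I (-0.68 to -0.46) and ribosomal proteins (-0.67 to -0.40). Voom moved the median of all genes from 0.08 to 0.20. With 4 and 3 libraries and a biological coefficient of variation of 0.821, changes of low genes are poorly resolved.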
